A study of Mus musculus with 7 samples.

Results

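The metabotropic glutamate (mGlu) receptor genes Grm2, Grm3, Grm4, Grm5, Grm7 and Grm8, together with Elfn1, were followed in RNA of mouse hippocampus. Members were the rows of the count table whose Ensembl IDs carry these symbols in GENCODE M21, 7 of 39017 gene IDs. The assay was TRAP (translating ribosome affinity purification): ribosomes marked with EGFP on their L10 protein are pulled down and the RNA on them is sequenced. Per the labels, the mice carried GAD2 cre and L10-EGFP, so that tagging follows Cre driven by Gad2, a gene of GABAergic neurons, and 2 hippocampi went into each TRAP sample. There were 3 bound libraries (RNA of the pull-down, titled GAD_ctrl) and 4 unbound libraries (2 titled UBS and 2 titled UBGS), and all carry the same labelled tissue and mouse lines. The sources used here give no age, sex, strain background, batch or pairing, and do not say what UBS and UBGS stand for. Unbound replicates 1 and 2 are the UBS and 3 and 4 the UBGS libraries. Whether different animals stand behind different libraries is not given, so the p-values below reflect library-to-library spread, which may be technical.

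Metabotropic glutamate receptors are G-protein-coupled receptors with a large glutamate-binding domain outside the cell, and fall into classes by sequence and coupling. Group I, with Grm5, couples to Gq and calcium release and sits mostly beside postsynaptic densities, while group II (Grm2, Grm3) and group III (Grm4, Grm6, Grm7, Grm8) couple to Gi/o and mostly damp transmitter release. Elfn1 encodes a postsynaptic leucine-rich repeat protein of somatostatin interneurons that recruits mGlu7 to the terminals contacting them.

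The tagged cell type was checked first. Gad2 was at 755.7, 722.2 and 758.7 CPM (read counts relative to library size, after TMM scaling) in the bound libraries, against 189.6 and 182 CPM in UBS and 111.7 and 114.4 CPM in UBGS libraries. Of 9 GABAergic neuron markers 9 were higher in bound libraries, and of 9 excitatory neuron markers 9 were lower, with summed levels of 895.7 to 1114 CPM in bound, against 4207 to 6303 CPM in unbound libraries. Camk2a made up most of this sum (726 to 930.3 CPM in bound, against 2682 to 4754 CPM in unbound libraries). Its log2 fold change was -2.06, beside a median of -4.885 over the 9 excitatory neuron markers (from -6.15 to -1.82). Of 8 astrocyte markers 7 were lower, with sums of 238.5 to 262.2 CPM in bound, against 1958 to 2887 CPM in unbound libraries. The 9 microglia markers went the other way and were all higher, with a sum of 555.1 CPM in bound replicate 2, 246.7 and 195.7 CPM in bound replicates 1 and 3, and 71.5 to 105.2 CPM in unbound libraries. Of 4 endothelial markers 2 were lower and none higher. The lower ones rested on few bound reads (1 to 8 a library for Cldn5, 7 to 22 for Cdh5), and a count over 4 genes is no result about endothelial RNA. Over all genes tested, 31.0% were higher and 30.7% lower in bound libraries. Library totals ran from 38690380 to 51953811 counts. The 2 UBGS libraries differed by 5.57 times the counting variance, and all other pairs of libraries of 1 group by 25.0 to 46.3 times. In bulk RNA such as this, fewer cells of a type and less RNA per cell cannot be told apart.

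Grm4, Grm8 and Elfn1 were higher in bound than in unbound libraries, and Grm2, Grm3 and Grm7 were lower, while Grm5 stood at the same mean level in both. The test was edgeR's quasi-likelihood test, with Benjamini-Hochberg adjustment over the 19563 genes tested and a threshold of 0.05 on the adjusted p. All 7 members passed the filter on low counts, and 6 of them passed the test. Over all genes tested, 61.7% passed, 31.0% as higher and 30.7% as lower in bound libraries, and beside these shares 3 higher and 3 lower of 7 is no result about the members as a group. With library totals in place of TMM, 71.5% of all calls were higher in bound libraries, against 50.3% here. For the same 6 members the bound and unbound libraries did not overlap, as for 63.3% of all genes tested (31.7% higher and 31.6% lower in bound libraries). The members' median log2 fold change was 0.00, beside -0.01 for all genes tested, and the members are described one by one for this reason.

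**Figure D1:**
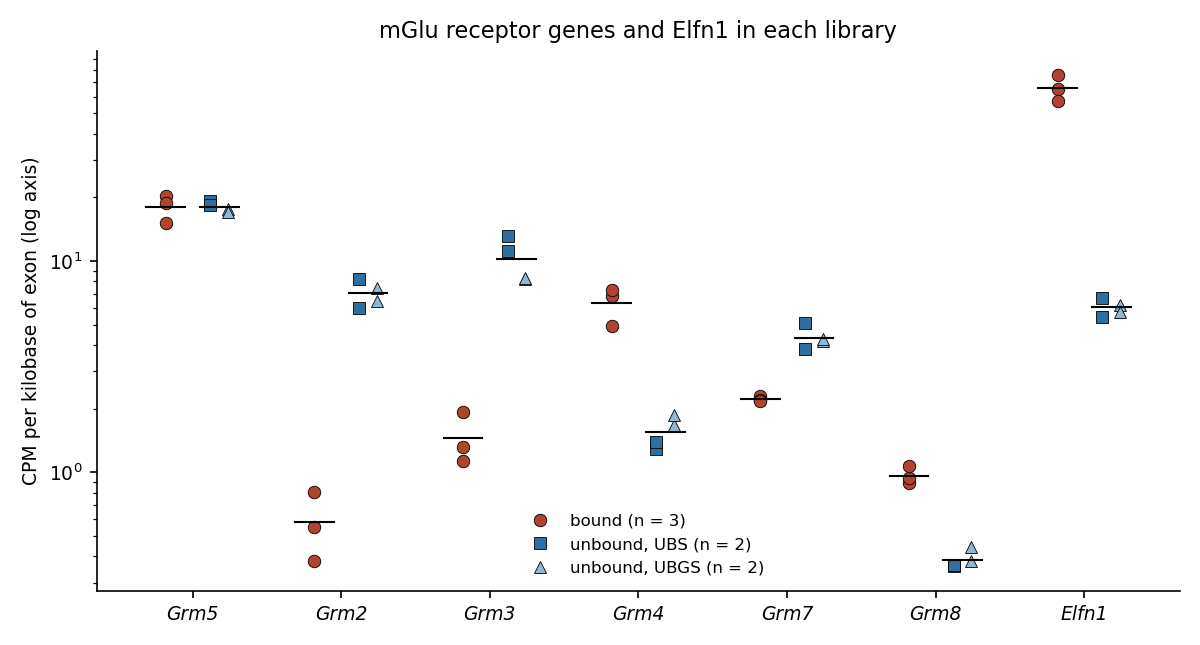
Level of each gene in each library in CPM per kilobase of merged exon, on a log axis; circles are bound libraries (n = 3), squares and triangles the unbound UBS and UBGS libraries (n = 2 each), and bars the group means. Elfn1, at 66.1 CPM per kilobase, was the highest of these genes in bound libraries, and the Grm5 libraries of both groups overlap.

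The group I receptor among the members did not differ in level past the threshold. Grm5 (chr7:87584168-88134907, plus strand, on mm10 as the other gene positions), the receptor found on both pyramidal cells and interneurons, was at 207.6, 193.4 and 154.4 CPM in bound libraries, against 197.2, 187.7, 181.4 and 174.3 CPM in unbound libraries. The bound values spread around the unbound ones, with the third bound library the lowest of the 7. The means were 185.1 ± 27.5 CPM in the bound group (SD, n = 3), against 185.2 ± 9.74 CPM in unbound libraries (SD, n = 4), a log2 fold change of 0.00 (SE 0.10, edgeR adjusted p = 0.999). The 95% interval of the ratio, bound over unbound, ran from 0.863 to 1.16, so that a difference inside these bounds is not excluded at this replication. This value hangs on the scaling: Grm5 was called higher with library totals (log2 0.44, edgeR adjusted p = 0.0045), which moved the median of all genes to 0.43, and with a correction for exon length (log2 0.49, edgeR adjusted p = 0.00078).

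Group II receptors were the lowest members relative to unbound RNA. Grm2 (chr9:106643095-106656082, minus strand), which in hippocampus is known from dentate granule cells and their mossy fibres, was at 1.85, 2.71 and 3.95 CPM in bound libraries, against 40.4, 29.2, 36.6 and 31.6 CPM in unbound libraries. Each unbound library was far above each bound one. The mean of 2.83 ± 1.05 CPM in bound libraries (SD, n = 3), against 34.5 ± 5.0 CPM in unbound libraries (SD, n = 4), gave a log2 fold change of -3.62 (SE 0.24, edgeR adjusted p = 2.6e-07), or 12.3-fold lower. Raw counts behind the bound values were 108 to 174 reads, against 1251 to 1558 reads in unbound libraries. Exons of Grm2 overlap those of Gm28111 on the other strand over 9.6% of their length, and as the strand setting of the counting is not given, reads there could belong to either gene.

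Grm3 (chr5:9485541-9725170, minus strand), known from astrocytes as well as neurons, was at 5.86, 3.46 and 4.01 CPM in bound libraries, against 40 and 34 CPM in UBS and 25 and 25.3 CPM in UBGS libraries. Bound and unbound libraries were again apart, and within the unbound group the UBS libraries were the higher pair. The log2 fold change was -2.80 (SE 0.23, edgeR adjusted p = 1.4e-06), or 6.98-fold lower. Beside these results, the summed markers of excitatory neurons and of astrocytes were also lower in bound libraries, as given above. The same held for 6 of 6 oligodendrocyte markers (329.1 to 402.6 CPM summed in bound, against 1189 to 1376 CPM in unbound libraries) and 5 of 5 markers of their precursors (13.1 to 17.4 CPM in bound, against 109 to 128.3 CPM in unbound libraries). Their part in the levels of Grm2 and Grm3 was not tested.

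The start regions of this pair, the members with the largest falls, are shown with their GC boxes. The windows are RefSeq's on GRCm38.p6, from 250 bases before to 50 bases after an annotated start, on the gene's strand, 5′ to 3′, and capitals mark GC boxes (GGGCGG on either strand, 2 matches running on in Grm3). The Grm2 window lies at chr9:106656060-106656359 on the minus strand and the Grm3 window at chr5:9725303-9725602 on the minus strand.
Grm2: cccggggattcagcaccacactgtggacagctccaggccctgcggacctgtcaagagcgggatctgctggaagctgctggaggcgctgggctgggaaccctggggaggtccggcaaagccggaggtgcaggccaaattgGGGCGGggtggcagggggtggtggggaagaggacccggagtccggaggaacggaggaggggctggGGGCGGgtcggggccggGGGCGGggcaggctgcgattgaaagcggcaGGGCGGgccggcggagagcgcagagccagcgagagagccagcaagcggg
Grm3: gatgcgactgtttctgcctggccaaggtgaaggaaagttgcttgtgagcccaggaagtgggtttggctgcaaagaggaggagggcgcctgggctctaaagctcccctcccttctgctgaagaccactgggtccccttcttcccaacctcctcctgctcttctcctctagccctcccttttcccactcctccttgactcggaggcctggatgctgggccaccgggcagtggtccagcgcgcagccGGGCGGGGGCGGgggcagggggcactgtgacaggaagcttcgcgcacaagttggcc
Grm2 held 4 GC boxes and Grm3 held 2, and 35.7% of 32851 RefSeq windows held at least 1. GC content was 72.0% in Grm2 and 63.7% in Grm3, against a median of 52.7% over all windows. A match of letters is a description and not a binding site.

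Group III receptors were split. Grm4 (chr17:27422387-27521403, minus strand), a presynaptic receptor best known from cerebellar granule cells, was at 40.8, 43.7 and 29.3 CPM in bound libraries, against 7.67 and 8.35 CPM in UBS and 10 and 11.1 CPM in UBGS libraries. Each bound library was well above the highest unbound one, and within the unbound group the UBGS libraries were the higher pair. The means of 37.9 ± 7.60 CPM in the bound group (SD, n = 3), against 9.28 ± 1.57 CPM in unbound libraries (SD, n = 4) gave a log2 fold change of 2.03 (SE 0.16, edgeR adjusted p = 1.3e-06), or 4.08-fold.

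Grm8 (chr6:27275119-28135178, minus strand), a high-affinity presynaptic receptor, was the least abundant of the measured receptors in unbound RNA and rose as well. It was at 8.77, 9.27 and 10.6 CPM in bound libraries, against 3.56, 3.6, 4.37 and 3.75 CPM in unbound libraries. These groups did not overlap, and the log2 fold change was 1.32 (SE 0.16, edgeR adjusted p = 2.9e-05), or 2.49-fold. Its unbound values rest on 121 to 186 reads a library.

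Grm7 (chr6:110645581-111567230, plus strand), the low-affinity receptor of the active zone and the partner of Elfn1 across the synapse, went the other way. It was at 13.5, 12.9 and 12.8 CPM in bound libraries, against 29.9, 22.4, 24.6 and 25.1 CPM in unbound libraries. The bound libraries lay within 1 CPM of each other, below each unbound library. The log2 fold change was -0.97 (SE 0.12, edgeR adjusted p = 3.1e-05), or 1.95-fold lower. With library totals in place of TMM it was -0.53 and still past the threshold (edgeR adjusted p = 0.0016). Exons of Grm7 overlap those of the antisense gene Gm20387 over 2.21% of their length, and Gm20387 itself had 39 to 112 counts a library.

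Grm6, the receptor of retinal ON bipolar cells, had 0 counts in each of the 7 libraries. A count of 0 allows up to 0.048 to 0.088 CPM, depending on the library (3 counts, counting error only).

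Elfn1 (chr5:139907943-139974722, plus strand) had the largest rise of the 7 members. It was at 271.9, 239.4 and 315.7 CPM in bound libraries, against 22.7, 28.0, 25.8 and 24.03 CPM in unbound libraries. The values of the groups lay an order of magnitude apart. The means of 275.7 ± 38.3 CPM in the bound group (SD, n = 3), against 25.1 ± 2.28 CPM in unbound libraries (SD, n = 4) gave a log2 fold change of 3.45 (SE 0.11, edgeR adjusted p = 1.4e-09), or 10.96-fold, with a 95% interval of 9.30 to 12.9. A rise of this size or more that passed the test was found for 292 genes, 1.49% of those tested. The bound library with most microglia RNA, replicate 2, had the lowest Elfn1 level of the 3, and without it the log2 fold change was 3.55. Grm4, in contrast, was highest in that library (43.7 CPM). The part of microglia RNA in the level of any member was not tested. Of 6 markers of somatostatin and O-LM interneurons 5 were higher in bound libraries, with sums of 3391 to 4925 CPM in bound, against 311.6 to 352.3 CPM in unbound libraries; the other, Chrna2, did not pass (1.05 CPM with bound, against 0.588 CPM with unbound RNA). Their part in the Elfn1 level was not tested.

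Elfn2, the paralog of Elfn1, did not pass the test, at 159.2 ± 14.9 CPM in the bound group (SD, n = 3), against 141.2 ± 11.9 CPM in unbound libraries (SD, n = 4; log2 0.17, SE 0.09, edgeR adjusted p = 0.11). Per kilobase, Elfn1 exceeded Elfn2 in bound libraries by ratios of 3.27, 3.25 and 3.56, whereas in unbound libraries the ratio was 0.328 to 0.363. The ratio of Elfn1 to Grm7 was 26.2 to 34.9 in bound and 1.07 to 1.76 in unbound libraries.

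The start regions of the genes with the largest and the smallest rise among the members that were higher are shown for comparison with those of Grm2 and Grm3. The Elfn1 window lies at chr5:139907616-139907915 on the plus strand and the most upstream of 3 Grm8 windows at chr6:28135097-28135396 on the minus strand, and capitals again mark GC boxes.
Elfn1: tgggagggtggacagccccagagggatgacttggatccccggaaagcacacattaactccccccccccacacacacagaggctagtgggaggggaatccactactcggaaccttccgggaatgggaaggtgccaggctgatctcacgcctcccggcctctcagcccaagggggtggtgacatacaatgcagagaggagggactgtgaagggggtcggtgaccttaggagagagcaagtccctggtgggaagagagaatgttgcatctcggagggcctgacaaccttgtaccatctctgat
Grm8: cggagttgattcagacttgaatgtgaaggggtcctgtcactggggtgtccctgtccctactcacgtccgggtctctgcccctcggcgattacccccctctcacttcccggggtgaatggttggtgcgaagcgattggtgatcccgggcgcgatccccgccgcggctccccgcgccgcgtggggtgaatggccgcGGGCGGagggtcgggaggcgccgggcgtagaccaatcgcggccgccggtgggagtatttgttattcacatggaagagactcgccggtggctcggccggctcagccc
Elfn1 held no GC box and Grm8 held 1 at this start and none at the other 2, while 2 overlapping Grm7 windows shared a single box. GC content was 59.0% in Elfn1 and 67.0% in the Grm8 window shown, which was above the 63.7% of Grm3. It was 43.3% and 54.0% in the other Grm8 windows, and 61.0% and 66.7% in those of Grm7. None of the 8 windows, which covered 5 of the 7 members, held a TATA box (TATAAA, in 13.6% of all windows), a homeodomain core (TAATTA, 5.29%) or a CRE (TGACGTCA, 1.79%), searched on both strands. An E-box (CANNTG, 72.3% of all windows) was found only in 2 of the Grm8 windows. The absence of letters in a window says nothing about a factor.

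**Figure D2:**
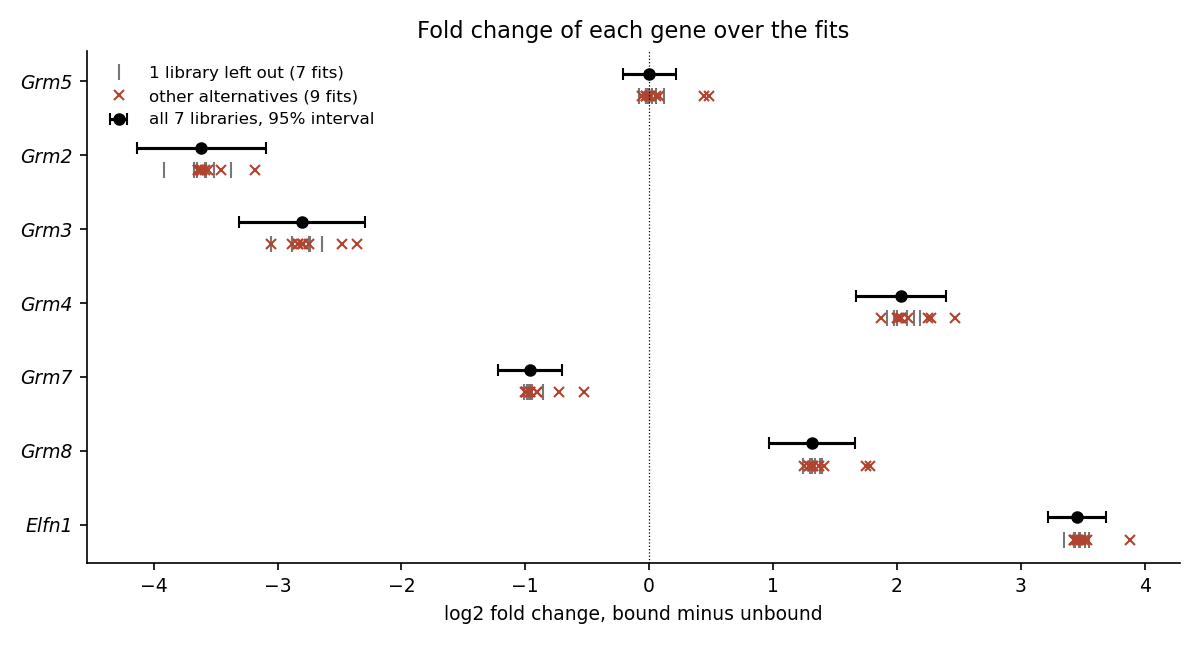
Log2 fold change of each gene, bound minus unbound; black points with bars are the fit of all 7 libraries with its 95% interval, grey ticks fits with 1 library left out and crosses the other alternative settings. Grm5 lies around 0 and reaches 0.44 and 0.49 in 2 settings, and the other genes stay on their side of 0.

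Fold changes of the members were set against each title series of the unbound group alone. Against the UBS libraries the log2 fold changes were -0.05 for Grm5, -3.63 for Grm2, -3.06 for Grm3, 2.25 for Grm4, -1.002 for Grm7, 1.41 for Grm8 and 3.44 for Elfn1. Against the UBGS libraries they were 0.08 for Grm5, -3.58 for Grm2, -2.48 for Grm3, 1.87 for Grm4, -0.91 for Grm7, 1.25 for Grm8 and 3.49 for Elfn1. The 6 members called with all libraries were called in the same direction against either series.

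The balance among the 6 member receptor genes was read from shares of their summed level per kilobase within each library, which need no scaling between libraries. Grm5 took 62.2%, 60.9% and 59.5% in bound libraries, against 40.7%, 44.7%, 44.6% and 44.5% in unbound libraries. Group II (Grm2 and Grm3) took 5.45% to 8.38% in bound libraries, against 38.5% to 45.1% in unbound libraries. Group III (Grm4, Grm7 and Grm8) took 30.7% to 33.7% in bound libraries, against 13.6% to 17.0% in unbound libraries. In each case the bound and unbound libraries did not overlap; no test was run, as 3 against 4 libraries cannot give an exact two-sided permutation p below 0.0571.

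Within group III, Grm4 took 21.3% ± 2.13 in bound libraries (SD, n = 3), against 3.80% ± 0.939 in unbound libraries (SD, n = 4), and was the most abundant of its class per kilobase in bound libraries. In unbound libraries Grm7 was, with 7.56% ± 0.869 in bound, against 10.4% ± 0.801 in unbound libraries. The ratio of Grm4 to Grm7 was 2.26 to 3.34 in bound and 0.253 to 0.435 in unbound libraries. Without division by exon length, the difference in share (bound minus unbound) was -8.91 points for Grm3, in place of -19.4, and 9.02 points for Grm5, in place of 17.3. The summed level of the 6 genes was 29.6 ± 3.81 CPM per kilobase in bound libraries (SD, n = 3), against 41.6 ± 4.003 in unbound libraries (SD, n = 4), and the highest bound library (32.6) lay under the lowest unbound one (38.3). Not divided by length, the sums overlapped, at 215.0 to 278.5 CPM in bound libraries, against 271.2 to 318.7 CPM in unbound libraries. Unlike the shares, both sums depend on the TMM factors, which were 1.14 to 1.22 for bound and 0.841 to 0.910 for unbound libraries. No other scaling was tried for the sums, so the separation per kilobase is given for TMM only.

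**Figure D3:**
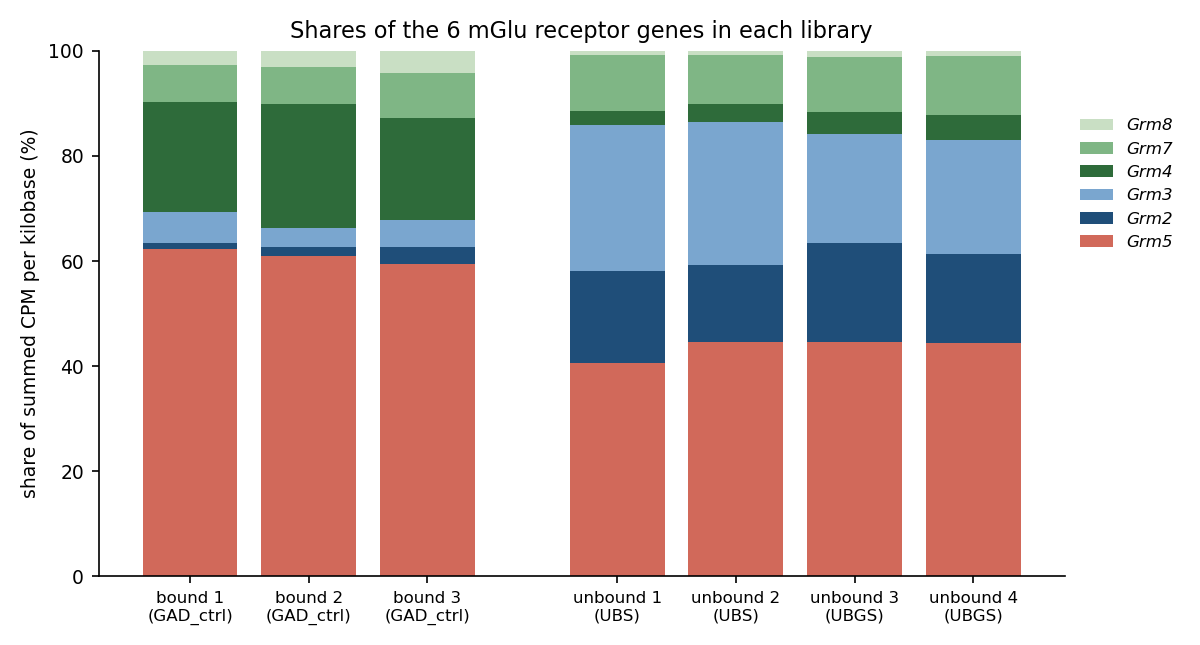
Share of each receptor gene in the summed CPM per kilobase of the 6 member receptor genes (%), 1 bar per library, bound libraries on the left and unbound libraries on the right; red is Grm5 of group I, blues group II and greens group III. Group II takes 5.45% to 8.38% in bound libraries, against 38.5% to 45.1% in unbound libraries.

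In order of level per kilobase, the bound libraries held Elfn1 (66.1 ± 9.18), Grm5 (18.1 ± 2.69), Grm4 (6.35 ± 1.27), Grm7 (2.22 ± 0.069), Grm3 (1.46 ± 0.412), Grm8 (0.963 ± 0.093) and Grm2 (0.579 ± 0.216 CPM per kilobase, SD, n = 3). No neighbours in this order overlapped over the bound libraries. The unbound libraries held Grm5 (18.1 ± 0.951), Grm3 (10.2 ± 2.38), Grm2 (7.04 ± 1.02), Elfn1 (6.02 ± 0.547), Grm7 (4.34 ± 0.536), Grm4 (1.55 ± 0.262) and Grm8 (0.386 ± 0.038 CPM per kilobase, SD, n = 4). There, the ranges of Grm3 and Grm2 overlapped, although Grm3 was the higher per kilobase in each of the 4 libraries (Grm2 over Grm3 from 0.536 to 0.911), and Grm2 and Elfn1 changed order between libraries. Both orders depend on division by exon length. Without it, mean Grm2 was above mean Grm3 in unbound libraries (34.5 against 31.1 CPM), and mean Grm8 above mean Grm3 in bound libraries (9.53 against 4.44 CPM).

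Genes with the most similar profiles over the 7 libraries were looked up among 13216 protein-coding genes of at least 1 CPM on average, by the root mean square difference of log2 CPM after centring each gene on its own mean. Elfn1 was nearest to Lhx6 (0.11 log2 units), Rgs12 (0.11) and Dlx1 (0.11), the first and last of which are transcription factors of GABAergic neurons. Grm4 was nearest to Izumo4, Rgs2 and Edaradd (0.10 to 0.13), and Grm8 to Mrpl36, Tubb3 and Coa3 (0.05 each). Grm2 was nearest to Cd109, Cerkl and Itga4 (0.15 to 0.19) and Grm3 to Efemp1, Enpp2 and Anln (0.16 to 0.17). Grm7 was nearest to Rbbp5, Scn8a and St6galnac5 (0.04 to 0.05), and Grm5 to Cntd1, Cryl1 and Nagpa (0.04 each). The measure describes 7 libraries of 2 groups and carries no test. Near profiles therefore had near fold changes, at log2 3.34 to 3.52 for the genes nearest Elfn1 (3.45). The genes nearest Grm8 (1.32) were at 1.29 to 1.33. A shared role or cell type cannot be read from this nearness.

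Between the UBS and UBGS libraries, no member passed the edgeR test, and 44 of 19256 genes did (0.229%). At an unadjusted p under 0.05, 2 members and 16.8% of all genes passed, and DESeq2 called 1 member, Grm3. Scaled within these 4 libraries, Grm3 was at 32.5 ± 3.72 CPM in UBS and 22.1 ± 0.113 CPM in UBGS libraries (SD, n = 2 each), a log2 difference of 0.55 (SE 0.10, edgeR adjusted p = 0.13, DESeq2 adjusted p = 0.010). The summed level of the astrocyte markers was 2887 and 2758 CPM with UBS, against 1958 and 1977 CPM with UBGS titles. Slc1a2 made up most of it (2523 and 2405 CPM, against 1696 and 1715 CPM), and Aldh1l1 leaned the other way (log2 -0.11, UBS minus UBGS). Of markers of other cell types, Gad2 (0.72), Camk2a (0.58) and C1qb (0.75) also leaned to UBS, while Dlx1 (-0.11), Neurod6 (-0.09) and Cx3cr1 (-0.04) did not. The part of any cell type in the Grm3 values was not tested. Grm4 was the other of the 2 members at an unadjusted p under 0.05. It was at 7.03 ± 0.426 CPM in UBS and 9.29 ± 0.677 CPM in UBGS libraries (SD, n = 2 each; log2 -0.40, SE 0.13, edgeR adjusted p = 0.23). These calls turn on single libraries: without unbound replicate 2, 4 members (Grm2, Grm3, Grm5 and Grm7) were higher and 1 (Grm4) lower in UBS, and without unbound replicate 1, Grm3 was higher and Grm4 lower. Over all genes, 36.9% passed without unbound replicate 2 and 23.5% without unbound replicate 1, beside which the member counts are no result about the members. For Elfn1 the 95% interval of the log2 difference was -0.27 to 0.32, and for Grm5 it was -0.04 to 0.27.

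Downstream of group I receptors, 8 of 12 genes of the Gq arm were lower and 2 higher in bound libraries (median log2 -0.85, beside -0.01 for all genes). For this list and those below, the shares over all genes tested were 31.0% higher and 30.7% lower. No list was tested as a set. Itpr2 and Itpr1, calcium release channels of the endoplasmic reticulum, were lower by a log2 fold change of -2.08 (SE 0.21, 2.70 ± 0.429 CPM in bound, against 11.5 ± 2.33 CPM in unbound libraries) and -1.73 (SE 0.07, 93.0 ± 7.15 CPM in bound, against 307.8 ± 12.1 CPM in unbound libraries). Plcb4, a phospholipase C that Gq activates, went the other way, at 78.3 ± 2.74 CPM in bound, against 22.1 ± 1.04 CPM in unbound libraries (SD, n = 3 and 4; log2 1.82, SE 0.08, edgeR adjusted p = 1.3e-08). Plcb2 was the other higher gene, at 3.18 ± 0.208 CPM with bound, against 1.77 ± 0.637 CPM with unbound RNA (log2 0.84, SE 0.29, edgeR adjusted p = 0.025). That call was lost against the UBS libraries alone and without unbound replicate 1, 3 or 4 or bound replicate 2 (log2 0.66, 0.75, 0.78, 0.80 and 0.80). Bound replicate 2, the library with most microglia RNA, had the highest Plcb2 level (3.39 CPM). With library totals the median of the list was -0.42 (3 higher, 7 lower), beside 0.43 for all genes. With the exon length correction it was -0.49 (2 higher, 7 lower), beside 0.04 for all genes. Itpr1 stood at -0.88 and Itpr2 at -1.37 with that correction.

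Of 8 scaffold genes of the Homer and Shank group, which tie group I receptors to the postsynaptic density, 6 were lower and 1 higher (median log2 -0.61). Shank3 was only just among the lower genes (log2 -0.21, SE 0.08, edgeR adjusted p = 0.047). Against either unbound title series alone 5 were lower, as with any 1 library left out except bound replicate 2. With the 1.5-fold minimum 4 were lower. Homer3 was at -1.43 (SE 0.12) and Homer1 at -1.15 (SE 0.14) on the log2 scale, and Frmpd4, which binds Homer and group I receptors, was at 0.78 (SE 0.06). With library totals 4 were lower and 3 higher (median -0.18), with Homer1 at -0.72 and Frmpd4 at 1.21. With the exon length correction 4 were lower and 2 higher (median -0.17), with Homer1 at -0.57 and Frmpd4 at 1.22.

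Of 15 genes of the Gi/o arm, 4 were higher and 5 lower (median log2 -0.04). This is near the shares over all genes tested, 31.0% higher and 30.7% lower, and no result about the list. With library totals 8 were higher and 4 lower (median 0.39, beside 0.43 for all genes). With the exon length correction 6 were higher and 4 lower (median 0.14, beside 0.04). Adcy5 stood at 1.09 and 0.97 in these settings. Gnai2, an inhibitory G-protein subunit, was at 0.92 (SE 0.13) and Adcy5, an adenylyl cyclase that this subunit inhibits, at 0.65 (SE 0.08), whereas the cyclases Adcy1 and Adcy9 were at -1.88 (SE 0.11) and -1.79 (SE 0.14). Gnai2 was highest in the bound library with most microglia RNA, and without that library stood at 0.80.

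Of 4 partners of group III receptors and of the Elfn pair, 3 were higher and none lower (median log2 0.68). Over all genes tested 31.0% were higher and 30.7% lower, and counts over 4 genes are no result about a list. Grip1 was at 1.22 (SE 0.11) and Pick1, which binds the tail of mGlu7, at 0.89 (SE 0.20), while Elfn2 did not pass. Pick1 differed by title series, at 1.30 against the UBS and 0.60 against the UBGS libraries alone, and passed against either. Of 4 genes of receptor desensitisation, 3 were higher and none lower (median log2 0.37), among them the arrestin genes Arrb2 (0.88, SE 0.14) and Arrb1 (0.41, SE 0.07). With library totals or the exon length correction 4 of 4 were higher in each of these lists. Medians were then 1.11 and 0.86 for the partners and 0.80 and 0.62 for desensitisation, beside 0.43 and 0.04 for all genes. Arrb1 was at 0.85 and 0.96 in these settings. Without bound replicate 2, 4 of 4 partners were higher. With the 1.5-fold minimum only 1 gene of each list was.

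**Figure D4:**
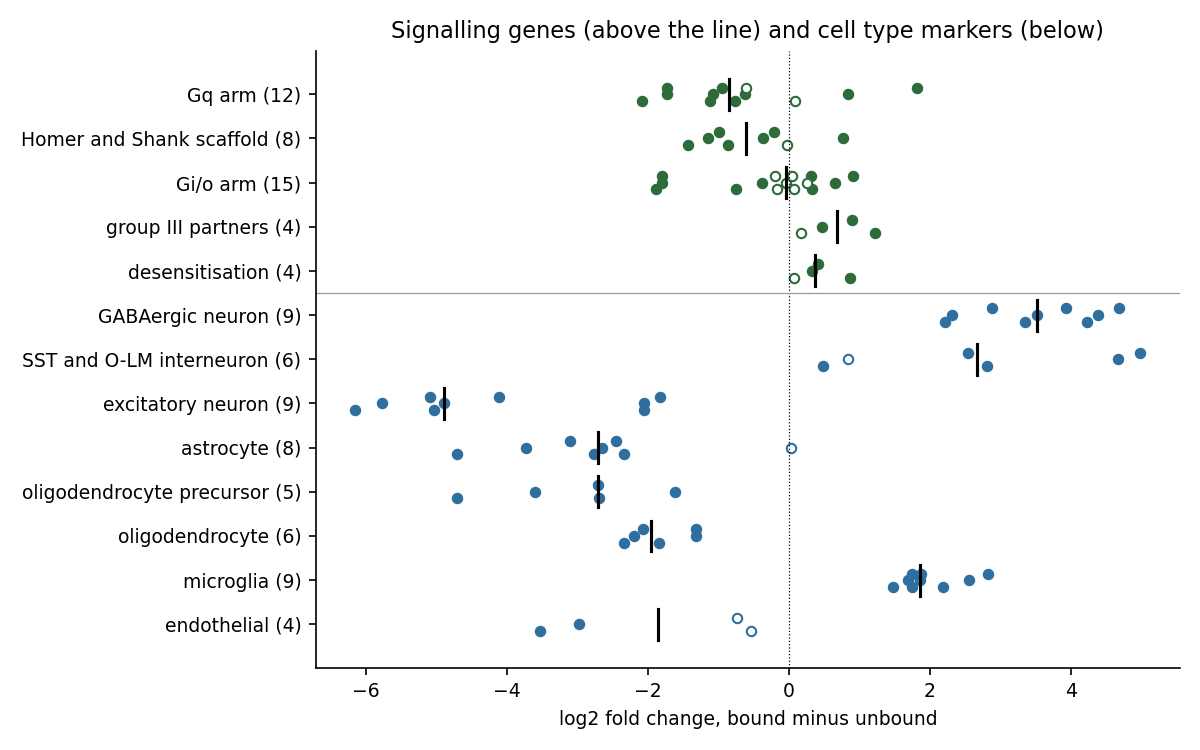
Log2 fold change, bound minus unbound, of the genes of each signalling list (above the line) and each cell type marker list (below), with the number of genes tested in brackets; filled points passed the test, open points did not, and bars are medians. The Gq arm lies mostly below 0 (median -0.85), GABAergic neuron markers all above it and excitatory neuron markers all below it.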

How the data were processed

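RNA was counted per gene in 3 bound and 4 unbound hippocampal TRAP libraries. The authors deposited raw counts, whole numbers of reads for each Ensembl gene. Their tools were STAR 2.5.3a and HTSeq, with mm10 as the build, per the submitters' processing notes. Not given in the sources used here are the HTSeq version, annotation release, strand setting and treatment of reads matching several places. IDs were matched without version to GENCODE M21 (GRCm38, the assembly of mm10), which named 37693 of 39017; 1324 stayed in the tests without a symbol. Of 50-base stretches of the members' transcripts, none was shared with another member or Grm6, and 0% to 8.53% (Grm2) with any other gene.

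The analysis used edgeR 4.0.16 under R 4.3.3 (filterByExpr, TMM, robust glmQLFit, glmQLFTest) over all genes, with DESeq2 1.42.0 as an alternative. Standard errors (SE) are the log2 fold change over the root of its F value, and log2 CPM for profile distances used a prior count of 2. Levels per kilobase used merged exon length, and receptor shares were taken over the 6 member receptor genes alone. A further gene is not reported here. Tested on counts simulated for 19563 genes (bound against unbound), edgeR found 76 of 100 genes set to differ at log2 1 and 99 of 100 at log2 2, and 14 of its 189 calls were false. For UBS against UBGS, with 19256 genes, it found 80 of 100 and 99 of 100, and 16 of 195 calls were false. No other genes were set to differ in either simulation, and rises and falls were equal in number. In the data 61.7% of genes passed between bound and unbound libraries, so the simulated rates do not describe that comparison.

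Members and gene lists were chosen with earlier results of these data known. Named genes are the members, Grm6, Gad2, for each list the 2 largest rises and 2 largest falls past the threshold, and for each member the 3 nearest profiles; Elfn2 and the marker sums were added as context. Alternatives were other scalings, filters and tools, an exon length offset, a 1.5-fold minimum, each unbound title series alone and each library left out. Library totals ran from 38690380 to 51953811 counts, and the fewest reads behind a value of a member were 108 (Grm2, bound replicate 1).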

Additional observations from a re-analysis of the deposited data

Results flagged for a closer look

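Outliers were looked for in the 4 unbound libraries over 23 genes (members, Gad2 and the named signalling genes), by the gap of the highest or lowest library to its neighbour divided by the range, against Dixon's 95% critical value. Chance alone picks about 1 group in 20, and 2 genes stood out, neither of them a member. Plcb2 was at 2.71 CPM in unbound replicate 2, against 1.32 to 1.56 CPM in the other unbound libraries (gap over range 0.832). Arrb1 was at 148.4 CPM in unbound replicate 1, against 133.2 to 135.6 CPM in the others (gap over range 0.838).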

How the results depend on the processing

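The members other than Grm5 kept their direction and stayed past the threshold in each of the 16 alternatives run, with log2 fold changes from 3.35 to 3.88 for Elfn1, 1.87 to 2.47 for Grm4, 1.24 to 1.78 for Grm8, -1.01 to -0.53 for Grm7, -3.06 to -2.36 for Grm3 and -3.91 to -3.19 for Grm2. Grm5 did not pass in 14 of them and changed sign, to -0.028 with DESeq2 size factors, -0.027 with DESeq2 and -0.054 against the UBS libraries, and ranged from -0.086 to 0.12 with 1 library left out; the cause was not tested. Over all genes, library totals gave 9285 higher and 3704 lower calls, and the 1.5-fold minimum 3246 and 3608, against 6072 and 6004. That minimum also ended the calls of Plcb2, Adcy5, Pick1 and Arrb1. Without division by length, the bound minus unbound share was 9.02 points for Grm5, -10.7 for Grm2, -8.91 for Grm3 and 11.7 for Grm4, in place of 17.3, -14.9, -19.4 and 17.5, since longer genes then weigh more.

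Between UBS and UBGS, DESeq2 called 1 member higher, and with 1 library left out 0 to 4 members were higher and 0 to 1 lower, the lone library of a series being assumed to vary like the others. Log2 differences then ranged from -0.22 to 0.24 for Grm2, -0.15 to 0.26 for Grm7 and -0.14 to 0.17 for Elfn1. Grm3 passed without unbound replicate 1 or 2 (0.43 and 0.66). Over all genes, calls ranged from 4 to 3596 higher and 11 to 3793 lower when 1 library was left out, and were 7 and 15 with library totals, 60 and 44 with no filter and 174 and 112 with DESeq2, against 18 and 26. No paired analysis was possible because the titles of bound and unbound libraries share no numbers, and UBS and UBGS share only 1.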
